A study of Mus musculus with 4 samples.

Results

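Single-nucleus RNA sequencing (snRNA-seq) of mouse brain was examined for 6 genes that clear glutamate and GABA from the extracellular space or metabolize them: Slc1a1, Slc1a2, Slc1a3, Slc6a11, Glul and Abat. They were chosen by name out of 31053 genes in the count tables, and all 6 were detected in all 4 libraries. The nuclei came from male C57BL/6J mice aged 8 weeks, which had received an AAV9 vector by intra-cisterna magna (ICM) injection at 4 weeks. AAV-VEGF-C carried mouse VEGF-C, and AAV-CTRL, the control vector, carried a soluble fragment of VEGFR-3 that does not bind VEGF-C, fused to an immunoglobulin tail. The paper describes dissected cortical and striatal areas, with 5 brains pooled for each vector. Each vector had 1 library labelled cortex and 1 labelled striatum. With 1 library per group there was no replicate check on any difference, so no test was run and no p-value is given. The 95% intervals are exact (Poisson for levels, conditional binomial for ratios) and reflect counting error alone, without the variation between animals. Where 4 values are listed, the libraries labelled cortex come first and those labelled striatum last, each with AAV-CTRL before AAV-VEGF-C.

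Glutamate released at synapses is taken up by transporters of the Slc1 family. Slc1a2 (GLT-1) and Slc1a3 (GLAST) are the main carriers of astrocytes, whereas Slc1a1 (EAAC1) is best known from neurons. Slc6a11 encodes GAT-3, a GABA transporter known from astrocytes. Glul encodes glutamine synthetase, which converts glutamate into the glutamine that is handed back to neurons, and Abat encodes GABA transaminase, the mitochondrial enzyme that breaks GABA down.

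After removal of doublets, 16208, 18906, 21346 and 16393 nuclei remained, with 58114129 to 70026151 UMIs per library. Classes were named from marker genes that did not include the 6 genes, so each class name below means nuclei like that cell type. Between 76 and 118 cell barcodes were shared by any pair of libraries, out of at least 17168 deposited nuclei in each. The region labels were checked against regional genes. Ppp1r1b, a marker of striatal projection neurons, stood at 63.3 and 75.8 UMIs per 1000000 (CPM) in the libraries labelled cortex but only at 18.8 and 18.5 CPM in those labelled striatum, where Slc17a6, a glutamate transporter of subcortical neurons, reached 148 and 175 CPM against 15.8 and 16.0 CPM. The label striatum was therefore used only as a label. The class of striatal projection neurons held 1374 and 1647 nuclei in the libraries labelled cortex and 553 and 406 in those labelled striatum.

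The genes lie on 6 chromosomes of GRCm38 (mm10), with positions taken from GENCODE vM21. Slc1a1 spans chromosome 19, 28835049 to 28913960, plus strand. Its downstream end overlaps 4430402I18Rik on the minus strand, so without a statement on strand in the sources the reads of the shared stretch (28893042 to 28913960) cannot be assigned with certainty. Slc1a2 spans chromosome 2, 102658659 to 102790784, plus strand, and contains the antisense gene Gm13872. Slc1a3 spans chromosome 15, 8634124 to 8710764, minus strand. Slc6a11 spans chromosome 6, 114131241 to 114249952, plus strand. Abat spans chromosome 16, 8513429 to 8621568, plus strand. Glul, the shortest at 9780 bp, spans chromosome 1, 153899944 to 153909723, plus strand, and its start overlaps Teddm2.

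RNA freed during nuclear isolation can enter droplets. Each level was therefore read against microglia nuclei of the same library (1427 to 1805 median UMIs per nucleus, against 1787 to 2085 in astrocytes). The free RNA itself was not measured, and whether the microglial level stands for it was not tested. Where a class is read as background below, its level was not above that of microglia, and the source of its transcripts was not tested. Slc1a2 was highest in astrocytes. With the cortex label it stood at 6689 CPM (95% interval 6604 to 6775) and 7104 CPM (7026 to 7184), and with the striatum label at 3623 CPM (3573 to 3674) and 3366 CPM (3311 to 3421), so that the labels did not overlap. These levels were 11.1, 11.7, 12.1 and 12.9 times those of microglia. Astrocytes led the order of 24 classes, and their lowest library lay above the highest library of any other class. Nearly every astrocyte nucleus carried the transcript. After each nucleus was thinned to 1000 UMIs, 98.5%, 98.6%, 91.4% and 90.2% of astrocytes had a UMI, against 41.9%, 43.2%, 25.3% and 20.5% of microglia (unthinned, 99.2%, 99.1%, 95.2% and 95.9% against 57.1%, 56.5%, 31.1% and 34.5%). Astrocytes, 11.7% to 13.6% of the kept nuclei, held 41.4%, 41.8%, 56.4% and 47.2% of all Slc1a2 UMIs. Neuronal nuclei, 48.2% to 61.1% of the kept nuclei, held 46.6%, 45.3%, 25.9% and 33.2%, more than astrocytes with the cortex label.

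Beyond astrocytes, Slc1a2 lay above the microglial level in all libraries in excitatory neurons, OPCs (oligodendrocyte precursor nuclei), endothelial nuclei and pericytes, and in the 3 libraries with enough smooth muscle nuclei. Smooth muscle nuclei were second in the order, at 3147 CPM in cortex AAV-VEGF-C and 891 and 1452 CPM with the striatum label, which was 5.18, 2.99 and 5.54 times microglia, and the astrocyte markers in them summed to 968, 932 and 1223 CPM. Excitatory neurons, the class known for a neuronal share of GLT-1, held 746, 813, 379 and 427 CPM, which was 1.24, 1.34, 1.27 and 1.63 times microglia of the same library. Endothelial nuclei stood at 1464, 2062, 706 and 765 CPM, or 2.43, 3.39, 2.37 and 2.92 times microglia. The 10 astrocyte marker genes summed to 651 to 867 CPM in endothelial nuclei against 173 to 332 CPM in microglia and 4156 to 6395 CPM in astrocytes, and all 10 were above 0 in each. The part of astrocyte RNA in the endothelial and smooth muscle values was not tested. Oligodendrocytes (546, 540, 231 and 206 CPM) and striatal projection neurons (225, 209, 130 and 123 CPM) lay below microglia in all 4 libraries in CPM. Per nucleus, oligodendrocytes held 0.905, 0.892, 0.399 and 0.427 Slc1a2 UMIs against 0.910, 0.909, 0.443 and 0.478 in microglia, so their Slc1a2 was read as background. The deeper striatal projection neurons held 0.985, 0.978, 0.566 and 0.645 per nucleus. Behind astrocytes the ranges of neighbouring classes in the order overlapped down to the last.

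Slc1a3 was likewise highest in astrocytes, at 1818, 1956, 1296 and 1170 CPM, with a thinned share of 76.6%, 80.0%, 62.4% and 58.3% of nuclei against 15.5% to 17.0% in microglia. Their lowest library was above the highest of every other class. Ependymal nuclei, the ciliated lining of the ventricles, followed with 591, 639 and 812 CPM in the 3 libraries with at least 50 such nuclei, and meningeal and perivascular fibroblasts with 608, 777, 569 and 473 CPM. The ranges of ependymal nuclei and fibroblasts overlapped, and both classes stood at 2.91 to 4.99 times microglia. Fibroblasts also held 1286 to 1334 CPM of the astrocyte markers, more than any other class listed here outside astrocytes, and the part of astrocyte RNA in their Slc1a3 was not tested. All neuronal nuclei together held 30.5, 28.2, 32.9 and 24.6 CPM, below microglia (197, 224, 194 and 163 CPM) in all 4 libraries. The microglial level of Slc1a3 was thus not a floor shared by all classes. Oligodendrocytes, at 144, 121, 144 and 134 CPM, were also below microglia.

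**Figure D1:**
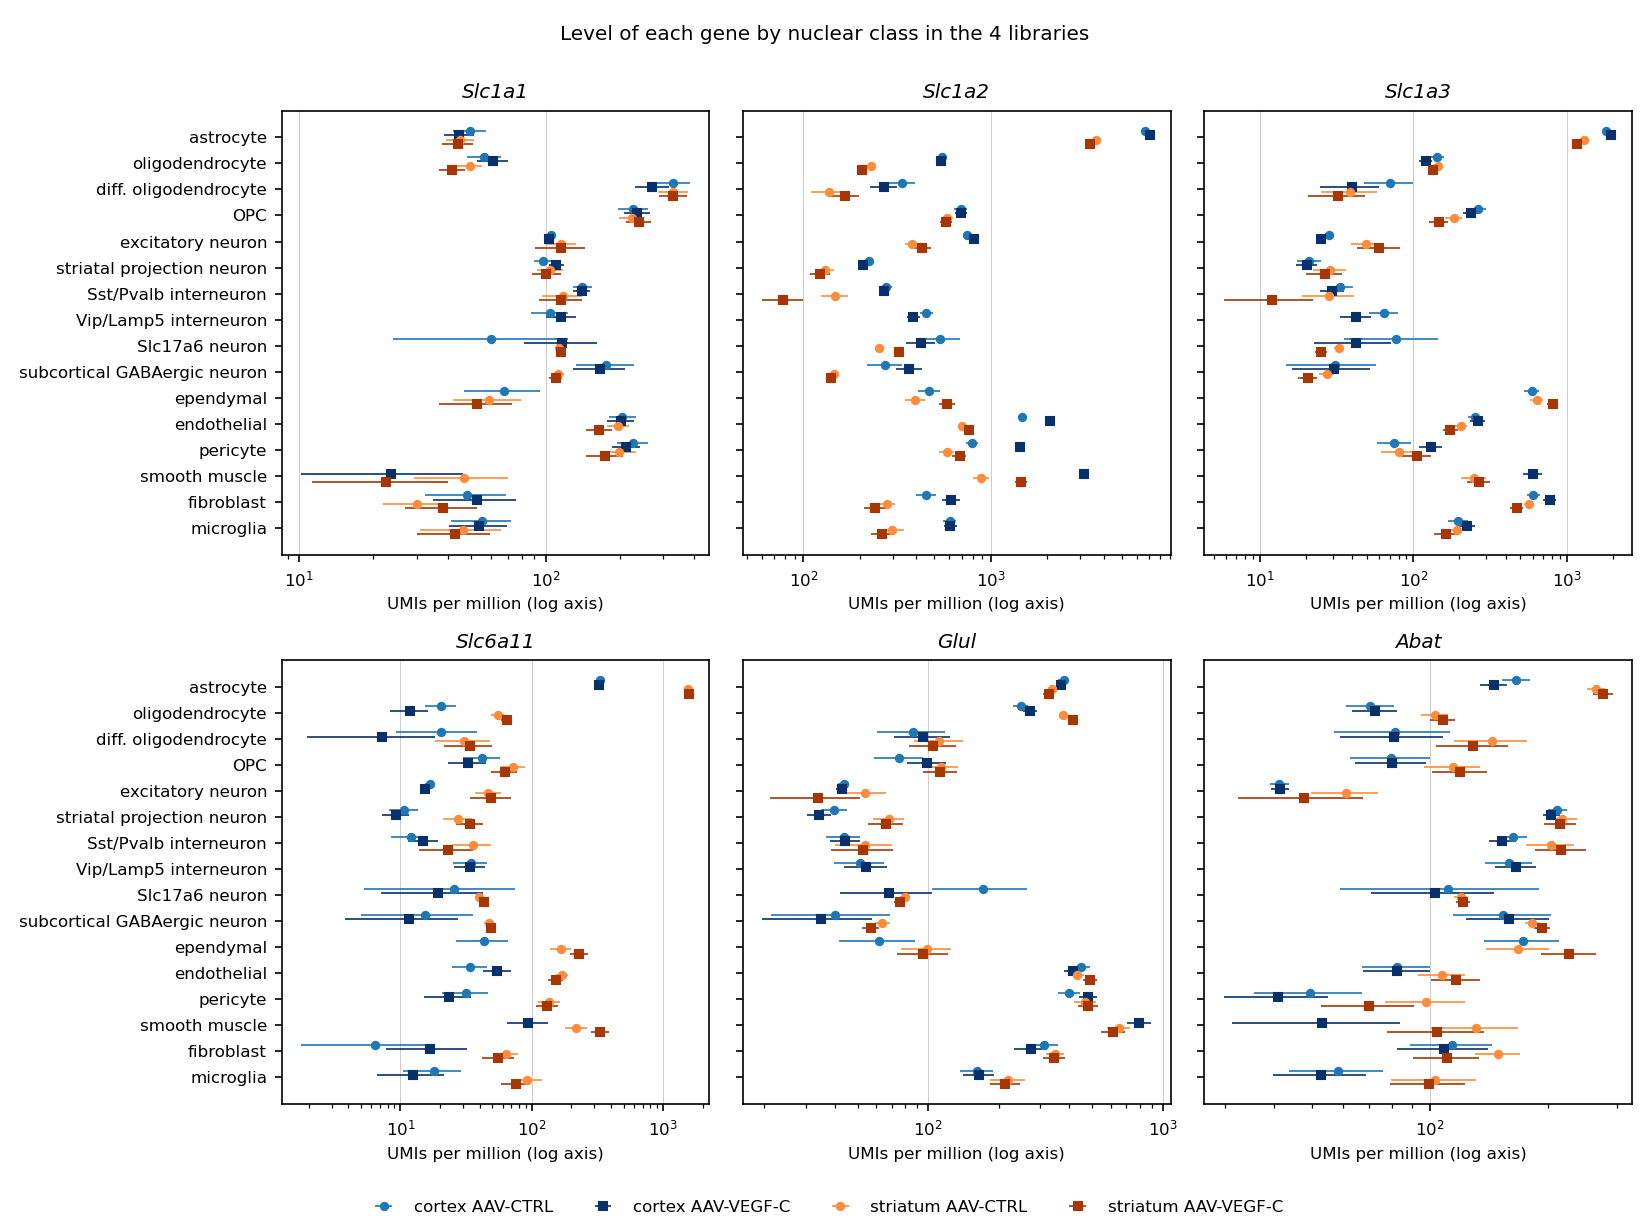
Level of each gene (CPM, log axis) in 16 classes of nuclei; each point is 1 library and bars are exact Poisson 95% intervals, with classes under 50 nuclei in a library left out. Slc1a2, Slc1a3 and Slc6a11 peak in astrocytes, Slc1a1 peaks in differentiating oligodendrocytes (271 to 330 CPM), and Slc6a11 is the gene whose astrocyte level separates most between cortex (blue) and striatum (orange) labels.

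Slc1a1 showed the reverse arrangement. Astrocytes were among the lowest classes, at 49.3, 44.6, 45.0 and 44.1 CPM, and did not stand apart from microglia in any library. Neuronal nuclei held 113, 114, 110 and 111 CPM, and with their number and depth they accounted for 71.0% to 81.0% of all Slc1a1 UMIs. That was near their share of the UMIs of all genes: 45292011 of 58114129, 55337794 of 70026151, 43880279 of 66240335 and 41860187 of 61715107. The highest level was nevertheless found in the oligodendrocyte lineage. Differentiating oligodendrocytes, the stage marked by Bcas1 and Enpp6, stood at 327, 271, 329 and 330 CPM, and their range did not overlap that of OPCs, next in order at 227, 235, 224 and 239 CPM. Oligodendrocytes held 56.4, 60.9, 49.2 and 41.8 CPM and were not apart from microglia in any library. In thinned nuclei 18.3% to 23.4% of differentiating oligodendrocytes and 19.9% to 22.0% of OPCs had a UMI, so by this share they overlapped. Oligodendrocytes lay below both, at 4.0% to 5.4%. The oligodendrocyte class includes a Klk6-led sub-cluster (1093 and 856 nuclei with the striatum label) whose leading genes hold Enpp6 and none of the oligodendrocyte markers, although all 10 of those passed the naming rule in it. The other oligodendrocyte sub-clusters likewise had all 10 passing and 0 among their leading genes. Slc1a1 in the Klk6-led nuclei was 33.6 and 34.6 CPM. OPCs, pericytes (226, 212, 198 and 173 CPM) and endothelial nuclei (205, 201, 197 and 165 CPM) overlapped in range. Among neurons, excitatory neurons (103 to 115 CPM) overlapped striatal projection neurons (97.1 to 111 CPM), while Sst/Pvalb interneurons (116 to 141 CPM) lay just above them.

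Slc6a11 was also highest in astrocytes within every library, at levels that differed by region label. Astrocytes held 332 CPM (314 to 352) and 325 CPM (308 to 342) in the libraries labelled cortex and 1540 CPM (1507 to 1574) and 1562 CPM (1525 to 1600) in those labelled striatum. The groups did not overlap, and each was 16.7 to 26.0 times microglia of its library (18.0, 12.5, 92.0 and 75.3 CPM). In thinned nuclei 25.5% and 26.4% of astrocytes had a UMI with the cortex label and 71.5% and 72.1% with the striatum label. Across libraries the range of astrocytes overlapped that of smooth muscle nuclei (94.2, 218 and 332 CPM in 3 libraries), although within every library astrocytes were higher. Oligodendrocytes (20.4, 11.7, 55.0 and 64.3 CPM) and neuronal nuclei (15.5, 15.0, 42.3 and 44.0 CPM) were not above microglia in any library in CPM. Oligodendrocytes, whose depth was near that of microglia, were read as background. For neurons, which are deeper, the comparison was less clear: per nucleus they held 0.0721, 0.0718, 0.180 and 0.222 Slc6a11 UMIs against 0.0272, 0.0187, 0.137 and 0.138 in microglia, while after thinning 1.65%, 1.57%, 4.65% and 5.38% of neurons had a UMI against 1.99%, 1.34%, 7.91% and 6.62% of microglia. Vip/Lamp5 interneurons, with enough nuclei under the cortex label only, were above microglia in both libraries (33.9 and 34.3 CPM).

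Glul was the least selective of the glial genes. Astrocytes held 380, 368, 339 and 326 CPM, and oligodendrocytes 248, 272, 377 and 415 CPM. Oligodendrocytes thus lay below astrocytes with the cortex label and above them with the striatum label, and both classes were above microglia (161, 165, 219 and 213 CPM) in all 4 libraries. Smooth muscle nuclei led the order, with 795, 653 and 616 CPM in 3 libraries, apart from pericytes (399, 481, 467 and 482 CPM) and endothelial nuclei (451, 413, 433 and 490 CPM), which overlapped. Neuronal nuclei stood at 43.7, 41.6, 71.6 and 68.5 CPM, below microglia throughout.

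Abat differed between transmitter classes of neurons. Striatal projection neurons, which release GABA, held 211, 204, 217 and 215 CPM, and Sst/Pvalb interneurons 162, 153, 203 and 215 CPM. Excitatory neurons held 41.4, 41.5, 61.0 and 47.7 CPM, the lowest of 24 classes, and were not above microglia in any library. Slc17a6 neurons, the subcortical glutamatergic class, stood between these at 111, 103, 120 and 122 CPM. They were above microglia in 1 of 4 libraries and not apart from them in 3. Astrocytes held 166, 145, 265 and 276 CPM, 2.57 to 2.85 times microglia of the same library, and overlapped the GABAergic classes in range. Oligodendrocytes, at 70.6, 72.3, 103 and 108 CPM, were above microglia in 1 of 4 libraries.

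For each gene, the genes with the most similar pattern were sought over 66 class and library sums of at least 100 nuclei, among 13544 genes with at least 1000 UMIs. The measure was Pearson's r of log2(CPM + 1), given as a description because the sums share libraries. Slc1a2 was most like Cpe (r = 0.84), Id2 (0.79) and Ntsr2 (0.78). Slc1a3 was most like Plpp3 (r = 0.85), Htra1 (0.84) and Ppp1r3c (0.81). Slc6a11 was most like Agt (r = 0.87), which encodes angiotensinogen, Etnppl (0.85) and Aqp4 (0.82), the astrocyte water channel. Ntsr2 and Aqp4 belong to the astrocyte markers that named the class. Agt is among the markers of astrocyte sub-clusters described below, so its likeness to Slc6a11 and the Slc6a11 levels of those sub-clusters are not independent. Among the genes most like Glul were Selenop (r = 0.93) and Prdx1 (0.93). Abat was most like Gm45846 (r = 0.73), Cacna2d2 (0.71) and Fam184a (0.70). Slc1a1 was most like 4430402I18Rik (r = 0.84), the gene that overlaps it, with Gnb4 (0.66) and Sh3bp4 (0.64) well behind.

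Libraries labelled striatum were next compared with those labelled cortex, separately for each vector. Genes were counted as past the fold at an absolute log2 ratio above 0.58 with at least 100 UMIs over both libraries. In astrocytes of AAV-CTRL, 2 of 6 genes (Slc6a11 and Abat) were higher and 1 (Slc1a2) lower past the fold, where 17.4% of 10515 genes passed in either direction. In astrocytes of AAV-VEGF-C, the same 2 were higher and 2 (Slc1a2 and Slc1a3) lower, where 17.7% of 10406 genes passed. Slc6a11 had a log2 ratio of 2.21 (2.12 to 2.30) with AAV-CTRL and 2.27 (2.18 to 2.35) with AAV-VEGF-C, above 99.5% and 99.6% of the genes compared. Slc1a2 had -0.88 (-0.91 to -0.86) and -1.08 (-1.11 to -1.05). Slc1a3 had -0.49 (-0.54 to -0.44) and -0.74 (-0.79 to -0.69). Slc1a3 thus passed the fold with AAV-VEGF-C only, and the difference between vectors was not tested. Abat had 0.68 (0.54 to 0.82) and 0.92 (0.78 to 1.07). Glul, at -0.17 and -0.17, and Slc1a1, at -0.13 and -0.02, stayed inside the fold. The 10 astrocyte markers summed to 4156 and 4290 CPM with the cortex label and to 6395 and 6083 CPM with the striatum label, the opposite direction to Slc1a2. Markers of other classes also moved with the label in astrocytes: the 8 excitatory neuron markers summed to 1298 and 1229 CPM against 237 and 201 CPM, and the oligodendrocyte markers to 1030 and 972 CPM against 2249 and 2510 CPM. Their part in the ratios was not tested.

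The same contrast took place between different groups of astrocytes. The class was divided without use of the 6 genes into 5 sub-clusters, most of them tied to 1 region label. A telencephalic-like sub-cluster held 1190 and 1442 nuclei of the libraries labelled cortex and 12 and 5 of those labelled striatum. It passed for 3 of the 6 telencephalic markers, Mfge8 and Emx2 among them. A non-telencephalic-like sub-cluster held 12 and 25 against 2082 and 1508. It passed for 3 of the 9 non-telencephalic markers, Agt, Itih3 and Zic1. A pair of surface-like sub-clusters expressed Myoc and Gfap, genes of astrocytes at the brain surface. The first of them (surface-like 1, also with Lhx2) held 677 and 861 nuclei with the cortex label and 58 and 13 with the striatum label, and the other (surface-like 2, also with Agt, Zic1 and Zic4) held 9 and 8 against 415 and 308. The last, led by Zic4 and left unnamed, passed for 2 of the 9 non-telencephalic markers and held 8 and 5 against 346 and 158.

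Slc6a11 was 358 and 357 CPM in telencephalic-like astrocytes and 1809 and 1776 CPM in non-telencephalic-like ones (AAV-CTRL and AAV-VEGF-C). Surface-like 2 astrocytes stood at 933 and 1108 CPM, above surface-like 1 astrocytes of the libraries labelled cortex (216 and 230 CPM). In the 58 surface-like 1 nuclei from striatum AAV-CTRL, Slc6a11 was 369 CPM (266 to 499), against 1809 CPM in the non-telencephalic-like nuclei of the same library. Slc1a2 in those 58 nuclei was 7878 CPM (7371 to 8412), within the upper range of the cortex label (6262 and 7366 CPM in surface-like 1, 6941 and 7045 CPM in telencephalic-like nuclei) or above it. Non-telencephalic-like nuclei held 3145 and 2939 CPM of Slc1a2, and surface-like 2 nuclei 2420 and 2720 CPM. The Zic4-led nuclei, although of the striatum label, held 6750 and 6759 CPM of Slc1a2 and the highest Slc1a3 of the sub-clusters, 2792 and 2376 CPM. With 1 library each, these values stand without a replicate.

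**Figure D2:**
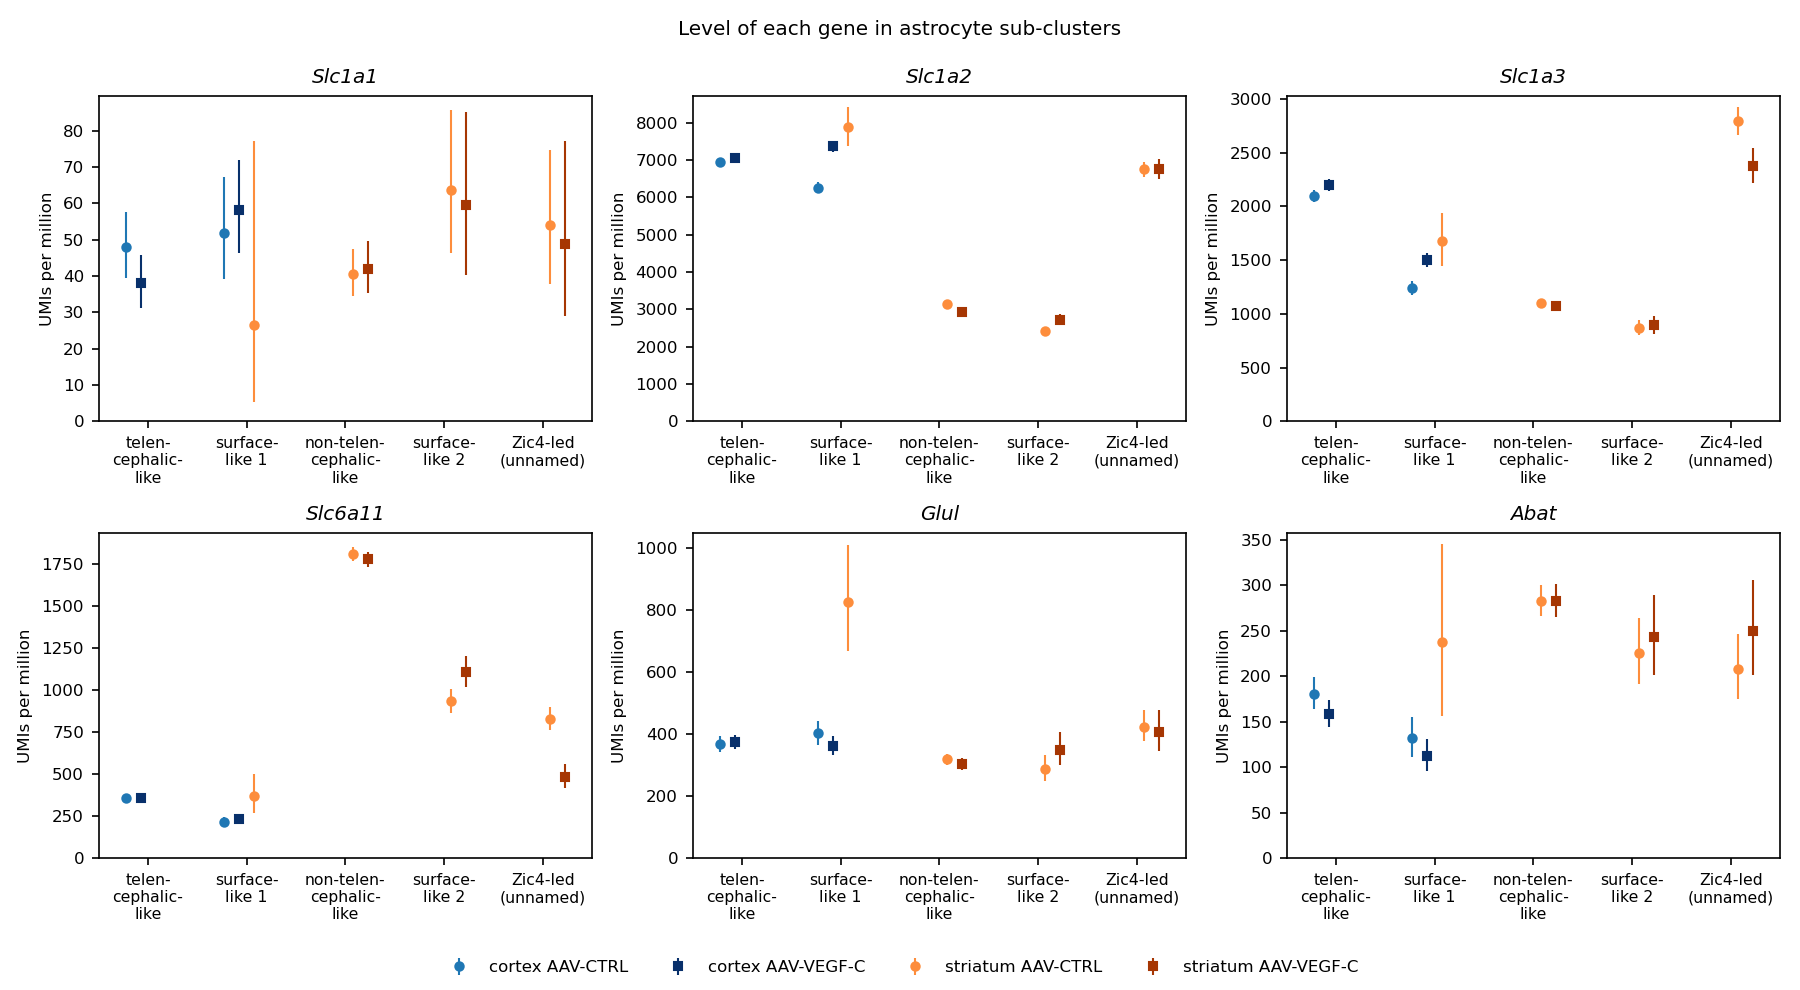
Level of each gene (CPM, linear axis from 0) in 5 astrocyte sub-clusters; each point is 1 library with at least 50 nuclei of the sub-cluster and bars are exact Poisson 95% intervals. Slc6a11 is highest in the non-telencephalic-like nuclei (1776 and 1809 CPM), while Slc1a2 is at 6262 CPM or above in telencephalic-like, surface-like 1 and Zic4-led nuclei and at 3145 CPM or below in the other sub-clusters.

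In oligodendrocytes, Slc6a11 and Glul were higher and Slc1a2 lower past the fold under both vectors. The background was 14.6% of 9975 genes with AAV-CTRL and 14.4% of 10195 genes with AAV-VEGF-C. Glul, the member above the microglial level in this class, had a log2 ratio of 0.60 (0.48 to 0.73) and 0.61 (0.50 to 0.72), while in microglia it had 0.44 (0.10 to 0.79) and 0.37 (0.06 to 0.68). Centred on the median over genes it had 0.55 and 0.55, inside the fold. Without the Klk6-led sub-cluster, an alternative chosen after seeing the data, Glul had 0.73 (0.60 to 0.86) and 0.70 (0.58 to 0.82), and Abat, at 0.72 (0.47 to 0.97) and 0.64 (0.41 to 0.87), passed the fold as well. The nuclei compared again fell into different sub-clusters. Those with the cortex label were nearly all of a sub-cluster led by neuronal genes such as Neurod6 and Nrgn (1610 of 1658 and 1874 of 1908), and those with the striatum label were split between one led by genes such as Ptgds, Pmch and Oxt and one led by Klk6. Glul was 247 and 271 CPM in the first, 411 and 442 CPM in the second and 316 and 358 CPM in the Klk6-led nuclei. In oligodendrocytes the 8 excitatory neuron markers summed to 1421 and 1335 CPM with the cortex label against 235 and 195 CPM with the striatum label. The part of neuronal RNA in this division into sub-clusters was not tested.

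Slc1a2 and Slc6a11 differed by region label in microglia too, with intervals that included the astrocyte ratios. In microglia the log2 ratio of Slc1a2 was -1.01 (-1.26 to -0.77) with AAV-CTRL and -1.21 (-1.44 to -0.99) with AAV-VEGF-C. Slc6a11, from 17 and 13 UMIs with the cortex label and 58 and 63 with the striatum label, had 2.35 (1.55 to 3.23) and 2.59 (1.72 to 3.58). Oligodendrocytes, in which neither gene was above microglia in CPM, had -1.24 (-1.35 to -1.14) and -1.39 (-1.50 to -1.29) for Slc1a2. For Slc6a11 they had 1.43 (1.02 to 1.87) and 2.45 (1.97 to 2.98). These ratios are therefore given without being read as a difference of oligodendrocytes. Abat differed by label in microglia as well, lower with the cortex label than with the striatum label, over a range of 52.8 to 103 CPM in the 4 libraries. The part of this difference in the Abat ratios of astrocytes and neurons was not tested.

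In all neuronal nuclei, 3 genes (Slc6a11, Glul and Abat) were higher and 1 (Slc1a2) lower past the fold with either vector, where 28.6% of 15833 genes passed with AAV-CTRL and 29.4% of 16045 with AAV-VEGF-C. The sums compared here were made of different neurons, mostly excitatory neurons with the cortex label (6168 and 7222 nuclei) and Slc17a6 and subcortical GABAergic neurons with the striatum label (5097 and 4445, and 2418 and 1736 nuclei). Slc1a2 had -1.50 (-1.53 to -1.46) and -1.35 (-1.38 to -1.32). Within excitatory neurons it had -0.98 (-1.09 to -0.87) and -0.93 (-1.10 to -0.76), inside the microglial interval with AAV-CTRL and just outside it with AAV-VEGF-C. The level of Slc1a2 in all neuronal nuclei (583, 614, 206 and 241 CPM) was not above that of microglia in any library. Abat had 0.84 (0.78 to 0.90) and 0.89 (0.84 to 0.95) in all neurons. Within striatal projection neurons, it had 0.04 (-0.11 to 0.19) and 0.08 (-0.07 to 0.23), with intervals that included 0. In Sst/Pvalb interneurons it had 0.32 (0.08 to 0.56) and 0.49 (0.25 to 0.74), and in excitatory neurons 0.56 (0.26 to 0.85) and 0.20 (-0.36 to 0.71). Slc6a11 and Glul, below or not apart from microglia in neurons in CPM, had 1.44 and 1.55, and 0.71 and 0.72. The Glul ratios fell under the fold with doublets kept (0.47 and 0.37) and when centred (0.53 and 0.53), and with AAV-CTRL also with each library clustered alone (0.45) and after thinning (0.56). Slc1a1 had -0.03 (-0.09 to 0.02) and -0.04 (-0.10 to 0.01).

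**Figure D3:**
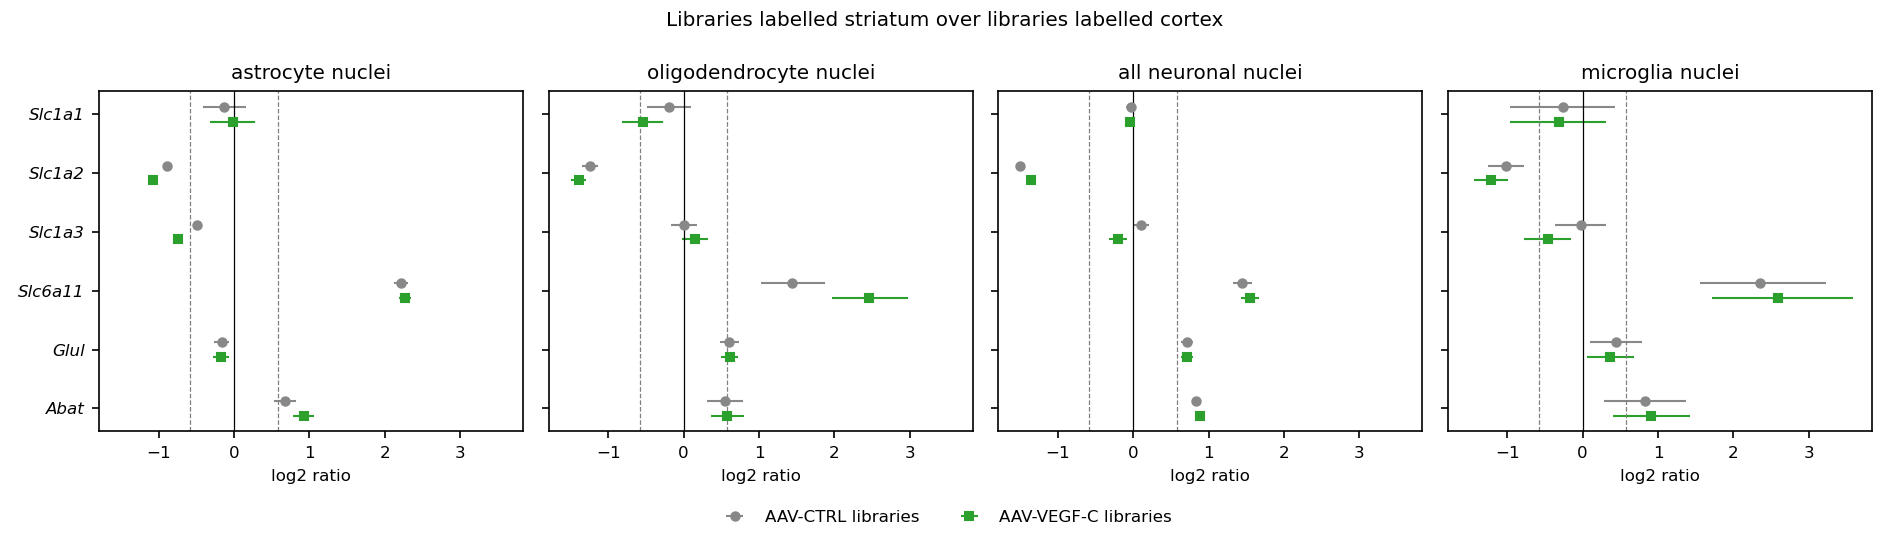
Log2 ratio of libraries labelled striatum over libraries labelled cortex for each gene in 4 classes; points are the AAV-CTRL (circles) and AAV-VEGF-C (squares) pairs, bars are exact conditional 95% counting intervals, and dashed lines mark an absolute log2 ratio of 0.58. Slc6a11 is right of the upper line and Slc1a2 left of the lower line in all 4 classes, microglia included, where Slc6a11 rests on fewer than 100 UMIs.

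The comparison the study was built for, AAV-VEGF-C against AAV-CTRL, gave small ratios in the classes fixed for counting. In astrocytes, 0 of 6 genes passed the fold with either label, where 1.28% of 9965 genes (cortex label) and 1.77% of 10778 genes (striatum label) did. In oligodendrocytes 0 of 5 genes with enough UMIs passed with the cortex label, against 1.96% of 8564 genes, and 0 of 6 with the striatum label, against 1.64% of 10919. In all neuronal nuclei 0 of 6 passed with either label, against 0.785% of 15678 and 2.24% of 15879 genes. The median log2 ratio of the 6 genes in astrocytes was -0.04 with both labels, beside -0.01 and -0.00 over all genes tested.

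Slc1a2 and Slc1a3 went opposite ways by small amounts in astrocytes of the 2 labels. With the cortex label, Slc1a2 was at 0.087 (0.06 to 0.11) and Slc1a3 at 0.11 (0.06 to 0.15) on the log2 scale, higher under AAV-VEGF-C. With the striatum label, Slc1a2 was at -0.11 (-0.14 to -0.08) and Slc1a3 at -0.15 (-0.20 to -0.10). The ratios differed among sub-clusters. With the cortex label Slc1a2 had 0.23 (0.19 to 0.28) in surface-like 1 nuclei and 0.02 (-0.01 to 0.05) in telencephalic-like nuclei. With the striatum label Slc1a2 was at -0.10 (-0.14 to -0.06) in non-telencephalic-like nuclei, 0.17 (0.06 to 0.27) in surface-like 2 nuclei and 0.00 (-0.07 to 0.07) in Zic4-led nuclei, which were 1.62% of kept nuclei in AAV-CTRL and 0.964% in AAV-VEGF-C. Slc6a11 in the Zic4-led nuclei, at 827 and 483 CPM, had the ratio farthest from 0 among sub-cluster values with at least 100 UMIs, -0.78 (-1.03 to -0.53).

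For the GABA genes and Glul, the ratios over all astrocytes were as follows. Slc6a11 had -0.03 (-0.15 to 0.08) with the cortex label and 0.02 (-0.03 to 0.07) with the striatum label. Abat had -0.19 (-0.36 to -0.03) and 0.06 (-0.06 to 0.17), and Glul -0.04 (-0.15 to 0.06) and -0.05 (-0.15 to 0.05). In oligodendrocytes Glul had 0.13 (-0.01 to 0.28) and 0.14 (0.06 to 0.22). In neurons Slc1a1 had 0.02 (-0.03 to 0.07) and 0.01 (-0.05 to 0.07), and Abat -0.01 (-0.07 to 0.05) and 0.04 (-0.01 to 0.10). The intervals of these ratios of Slc6a11, Abat, Glul and Slc1a1 lie within 0.58 on either side of 0, so a difference of that size between these libraries was outside the counting error. Slc1a3 in neurons had -0.11 (-0.22 to -0.01) and -0.42 (-0.54 to -0.30), at levels below those of microglia.

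Larger AAV ratios were found in some other classes. With the cortex label, 77 gene and class pairs over 19 classes had enough UMIs, and 4 were higher and 1 lower past the fold. With the striatum label, 2 of 94 pairs over 20 classes were higher and 4 lower. The share of all genes past the fold was computed for some of these classes only. The counts over classes therefore stand without a background share and are not read as an excess. Only some of these ratios are given here, for vascular nuclei and Sst/Pvalb interneurons. In pericytes of the cortex label, Slc1a2 was 793 CPM in AAV-CTRL and 1437 CPM in AAV-VEGF-C, a log2 ratio of 0.86 (0.73 to 0.99) from 655 and 1541 UMIs, and Slc1a3 had 0.79 (0.35 to 1.25) from 62 and 139 UMIs. Past the fold in these pericytes were 2.48% of 4435 genes. With the striatum label the pericyte ratio of Slc1a2 was 0.23 (0.04 to 0.41), inside the fold, where 4.92% of 3761 genes passed. Endothelial Slc1a2 had 0.49 (0.41 to 0.58) and 0.12 (0.00 to 0.23), also inside it, while endothelial Slc6a11 had 0.68 (0.11 to 1.27) with the cortex label from 42 and 68 UMIs (background 2.27% of 5765 genes) and -0.16 (-0.41 to 0.08) with the striatum label (3.14% of 7537 genes). Astrocyte markers in pericytes summed to 201 CPM in AAV-CTRL and 276 CPM in AAV-VEGF-C of the cortex label, and in endothelial nuclei to 709 and 651 CPM. Their part in these ratios was not tested. In smooth muscle nuclei of the striatum label, Slc1a2 was 891 CPM in AAV-CTRL and 1452 CPM in AAV-VEGF-C, a log2 ratio of AAV-VEGF-C over AAV-CTRL of 0.70 (0.53 to 0.88), where 7.28% of 2183 genes passed the fold. In Sst/Pvalb interneurons Slc1a2 had -0.04 (-0.17 to 0.09) with the cortex label (1.94% of 9103 genes past the fold) and -0.92 (-1.36 to -0.49) with the striatum label, from 146 and 65 UMIs, at levels (148 and 78.2 CPM) below those of microglia. Of 3837 genes, 6.91% passed in the latter pair. Microglia had a Slc1a2 ratio of 0.01 (-0.15 to 0.18) with the cortex label.

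**Figure D4:**
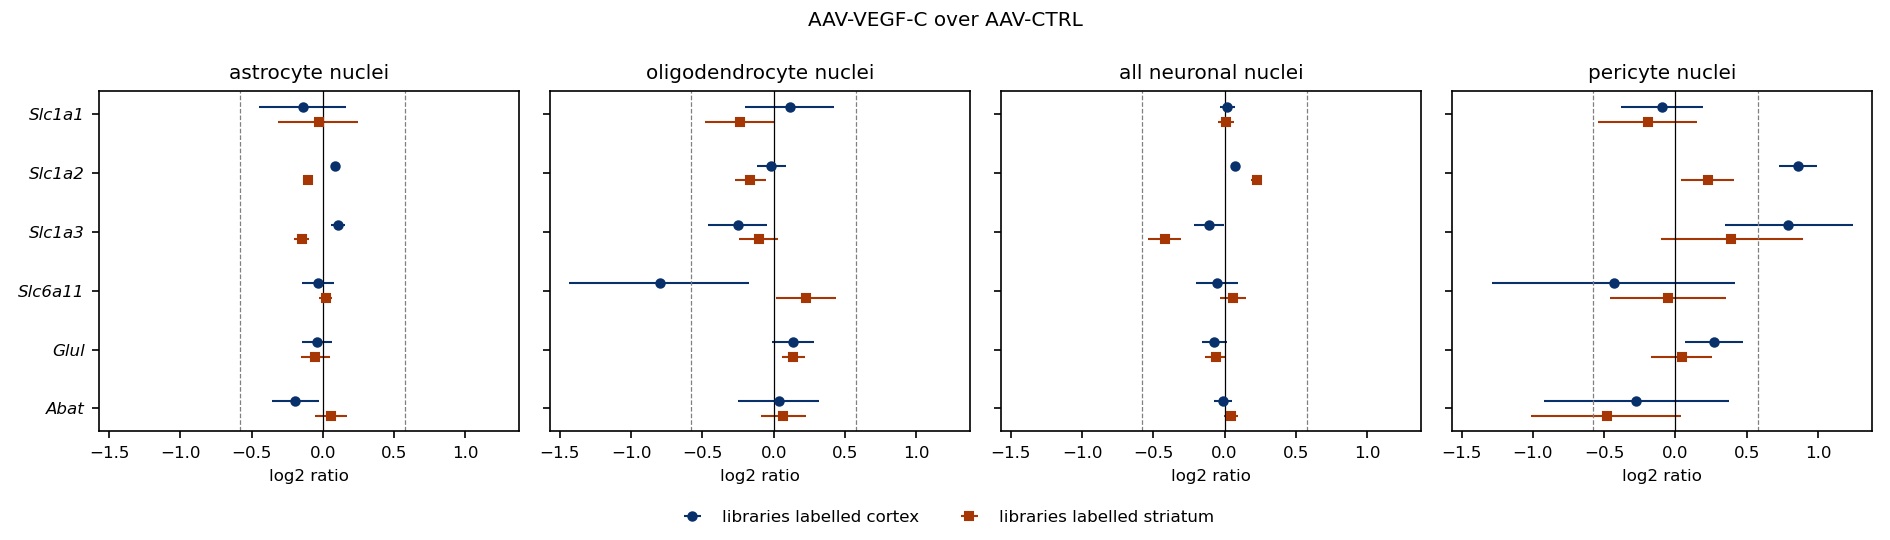
Log2 ratio of AAV-VEGF-C over AAV-CTRL for each gene in 4 classes; circles are the libraries labelled cortex, squares those labelled striatum, bars are exact conditional 95% counting intervals, and dashed lines mark an absolute log2 ratio of 0.58. Astrocyte and neuronal points lie between the lines, and Slc1a2 in pericytes of the cortex label (0.86) lies right of them. The oligodendrocyte point of Slc6a11 with the cortex label (-0.80) rests on 56 and 37 UMIs, under the minimum for counting.

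Over the other genes of the pathway, 25 in number (further transporters of glutamate, GABA and glutamine, glutaminases and glutamate dehydrogenase, mitochondrial carriers and astrocyte ion pumps and channels), the counts were taken in the same way. None passed the fold for the vector in astrocytes (0 of 17 and 0 of 19 with enough UMIs), oligodendrocytes (0 of 15 and 0 of 20) or neurons (0 of 21 and 0 of 22). For the region label, 5 of 17 were higher and 0 lower in astrocytes with both vectors, where 8.65% and 8.8% of all genes were higher. Among them were Slc38a1 (a glutamine transporter, log2 ratio 1.22 and 0.79), Slc25a18 (a mitochondrial glutamate carrier, 0.61 and 0.77), Atp1b2 (a sodium pump subunit, 0.87 and 0.73) and Kcnj10 (the potassium channel Kir4.1, 1.12 and 1.45). The median log2 ratio over the 17 was 0.25 and 0.21, beside 0.04 over all genes. In oligodendrocytes 5 of 18 were higher with AAV-CTRL (Slc7a11, Glud1, Aldh5a1 and Atp1b2 among them) and 3 of 18 with AAV-VEGF-C (Slc38a1 and Atp1b2 among them), with 0 lower, where 6.37% and 6.71% of all genes were higher. In neurons 11 of 22 and 10 of 22 were higher and 0 lower, where 19.2% and 20.1% of all genes were higher. Among them were Slc1a6 (EAAT4, a glutamate transporter known from Purkinje cells, 1.43 and 1.34), Slc25a13 (an aspartate and glutamate carrier, 1.55 and 1.64), Glud1 (glutamate dehydrogenase, 1.02 and 0.98) and Aldh5a1, which acts after Abat in GABA breakdown (0.61 and 0.68). Also among them were Slc1a5, Slc6a13, Slc38a1, Atp1b2 and Kcnj10 with both vectors and Slc7a11 with AAV-CTRL. Of these, Slc38a1, Atp1b2 and Kcnj10 were higher past the fold in astrocytes as well. Kcnj10 stood at 6.36, 5.87, 16.7 and 16.9 CPM in neurons, against 106, 95.9, 231 and 262 CPM in astrocytes. Levels of the wider list were not read against microglia in any class, and the part of astrocyte RNA in these ratios was not tested.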

How the data were processed

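The deposited files hold, per library, raw UMI counts of 31053 genes per nucleus, which the authors made with Cell Ranger (version 5.1.1 and build mm10 per the submitters' processing notes; the file headers name another release). Whether intronic reads were counted and strand used is not given in the sources used here. The deposited nuclei had at least 719 UMIs. Here doublets were called per library with Scrublet in scanpy 1.11.5 (expected rate 8%), and called nuclei and clusters with 40% or more of them were left out. The 4 libraries were clustered together (5000 variable genes without the 6 genes and the wider list, 50 components, 15 neighbours, leidenalg 0.10.2, resolution 1.2), and unresolved neuronal, vascular, astrocyte and oligodendrocyte clusters were divided again (resolution 0.8 or 0.4). Clusters were named from marker lists by at least 3 markers at 2-fold or more over other nuclei and in at least 10% of the cluster, a scoring rule set after the clusters were seen. Differences from the study's own names may come from these rebuilt classes. All neuronal nuclei means every neuronal class and neuroblasts, including unresolved ones.

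UMIs were summed per class and library, and CPM is per 1000000 UMIs of the class. Classes under 50 nuclei in a library were left out. Levels carry exact Poisson and shares exact binomial 95% intervals, and ratios exact conditional binomial ones (scipy 1.17.1). Shares were also computed after thinning each nucleus to 1000 UMIs. UMIs limit the precision, and no interval covers animals. The ratio code was tested on simulated data with known folds. The members, marker lists and wider list were chosen with earlier results of these data known. Named were all 6 genes, the 3 genes most like each, and wider-list genes past the fold. A few genes that met this rule or served as markers are not reported here. Alternatives tried were keeping doublets, clustering each library alone, resolution 0.6, allowing the 6 genes and wider list as clustering features, thinning, centring on the median, other UMI minimums and a stricter fold. Leaving the Klk6-led sub-cluster out of oligodendrocytes was added after seeing the data.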

Additional observations from a re-analysis of the deposited data

Results flagged for a closer look

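Of 108 pairs of gene and class with an AAV ratio under both region labels, 4 had counting intervals that excluded 0 in opposite directions. Each label has 1 library per vector, so the difference between labels was not tested in any of them. In astrocyte nuclei, Slc1a2 had a log2 ratio of AAV-VEGF-C over AAV-CTRL of 0.087 (0.06 to 0.11) with the cortex label and -0.11 (-0.14 to -0.08) with the striatum label. Slc1a3 in the same nuclei had 0.11 (0.06 to 0.15) and -0.15 (-0.20 to -0.10). Slc1a3 in fibroblasts had 0.35 (0.15 to 0.56) with the cortex label, from 379 and 414 UMIs, and -0.27 (-0.43 to -0.10) with the striatum label, from 855 and 458 UMIs. Slc6a11 in oligodendrocytes had -0.80 (-1.44 to -0.17) from 56 and 37 UMIs and 0.22 (0.01 to 0.44) from 333 and 417 UMIs, in a class where its level was not above that of microglia.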

How the results depend on the processing

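Each library stood alone in its group, so no replicate could be left out. No paired analysis was possible because the result comes from no test and the labels carry no replicate numbers. Of 456 alternative values of 72 log2 ratios, 27 changed sign, all of ratios of at most 0.195 in size at the main setting, and 76 lay outside the main counting interval. Of 132 alternative values of the 21 ratios past the fold, 8 fell under it and all were of Glul (6 in neurons, 2 in oligodendrocytes when centred), with the cause not tested. Without the Klk6-led sub-cluster, chosen after seeing the data, oligodendrocyte Slc1a2 had -1.14 and -1.26 by region label. Values for the region label are AAV-CTRL, then AAV-VEGF-C, where a pair is given. With doublets kept, astrocyte Slc1a2 had -0.92 and -1.11, and neurons had -1.61 and -1.56 (Slc1a2), 1.28 and 1.25 (Slc6a11), 0.47 and 0.37 (Glul) and 0.95 (Abat, AAV-VEGF-C). With each library clustered alone, astrocytes of AAV-VEGF-C had -1.12 (Slc1a2) and 2.38 (Slc6a11), neurons had -1.60 and -1.39 (Slc1a2), and 1.30 (Slc6a11) and 0.45 (Glul) with AAV-CTRL and 0.98 (Abat) with AAV-VEGF-C. With the genes allowed as clustering features, astrocytes had -0.82 and -1.03 (Slc1a2), 2.32 and 2.35 (Slc6a11) and -0.68 (Slc1a3, AAV-VEGF-C). After thinning, neurons had -1.57 (Slc1a2, AAV-CTRL), 1.86 (Slc6a11, AAV-VEGF-C), 0.56 and 0.87 (Glul) and 0.77 (Abat, AAV-CTRL), and astrocyte Slc1a2 had -1.14 (AAV-VEGF-C). Centred on the median over genes, Slc1a2 had -0.92 and -1.12 in astrocytes and -1.68 and -1.54 in neurons, with 1.26 and 1.36 (Slc6a11), 0.53 and 0.53 (Glul) and 0.65 and 0.70 (Abat) in neurons, where that median was 0.18 and 0.19. For the vector, astrocyte Slc1a2 of the striatum label had -0.15 both with each library clustered alone and after thinning. The count of genes past the fold stayed within 1.5 times in 103 of 112 alternatives. It was 1 rather than 0 in oligodendrocytes of the cortex label for the vector (minimum of 20 UMIs, at least 1 UMI in each library, doublets kept, each library alone) and in neurons of the striatum label (doublets kept). With a log2 ratio above 1 it was 1 and 2 in astrocytes and 2 and 2 in neurons for the region label. Resolution 0.6 moved none of these values out of its interval.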

Other observations

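The ratio between UMIs of different uptake genes within 1 library differed between classes. For each Slc1a2 UMI, astrocytes held 0.272 and 0.275 Slc1a3 UMIs with the cortex label and 0.358 and 0.348 with the striatum label. Microglia held 0.327, 0.368, 0.649 and 0.621, and neuronal nuclei 0.0523, 0.0460, 0.159 and 0.102. Microglia and neurons of 1 library thus did not hold the same ratio of these genes.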
